A study of Mus musculus with 9 samples.

Results

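Clone 4 of E14, a widely used line of mouse embryonic stem cells, was compared with its clones 1, 6 and 13. These are 4 of 9 clones in the series, each measured as 1 library of poly(A) RNA. All of the clones were grown alike, on gelatin in medium with serum and leukaemia inhibitory factor (LIF), a cytokine that keeps mouse embryonic stem cells undifferentiated. They carry no stated treatment or genotype, and the labels name no time point. The clones had been picked from the bulk line because their lipid droplets differed in size, but no label ties a droplet size to a clone. Each clone was picked from that line once, and the labels name no separate cultures of it. A difference between clone 4 and the others therefore has no replicate check, no p-value is given, and the difference cannot be told apart from one between 2 cultures of the same clone. The 3 reference clones were chosen with earlier results of these data known. They are the clones nearest to clone 4 and they share a raised stretch of chromosome 6.

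A gene was placed outside the span when the level in clone 4 lay above the highest or below the lowest of clones 1, 6 and 13. Levels are CPM, estimated counts scaled to the effective library size, and differences are on the log2 CPM scale. The distance from the span is the gap to the nearest of the 3 clones, and the difference is the gap to the middle one. A gene was called 2-fold outside when its distance was at least 1. The mean over the 9 clones reached 1 CPM in 13375 genes, of which 13125 lay outside the raised stretch of chromosome 6, from Uba3 to the chromosome's end, and 250 on it. Of the 13125, 8207 were outside the span: 4129 above it (31.5%) and 4078 below it (31.1%). These values chose the genes, so what follows describes them. With only 3 clones forming the span, a count outside it says little without the size of the distance.

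Embryonic stem cells held in serum and LIF are a mixture of states, from naive cells that resemble the early epiblast to cells that have begun to leave that state. Wnt and LIF signals hold the naive state, while FGF signals move cells out of it. Single clones of a stem cell line can also gain or lose parts of chromosomes during culture, and the genes of such a stretch then shift together. KRAB zinc finger proteins, which lie in clusters of near-identical genes, recruit the co-repressor Trim28 to repeated DNA.

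The summed estimated counts were 13556271 in clone 4, 10783718 in clone 1, 14309662 in clone 6 and 12926691 in clone 13. Clone 1 stood apart in that a single transcript held 6.83% of its counts, against 1.44 to 1.62% in the other 3. Markers of embryonic stem cells were at a high level in all of them. Pou5f1, the core pluripotency factor, was at 1162 CPM in clone 4 and 1004, 1122 and 991 in clones 1, 6 and 13, and Sox2, its partner, at 256 and 291, 294 and 291. The summed level of 15 early neural markers was 186 CPM in clone 4 and 184 to 190 in the 3 clones, with Neurog2 and Olig2 at 0. In bulk RNA, fewer cells of a type and less RNA per cell cannot be told apart.

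Outside the 2 regions of chromosomes 6 and 14 described below, clone 4 was nearer to clones 1, 6 and 13 than to any other clone, but stood farther from them than they stood from each other. The median absolute difference was 0.22, 0.21 and 0.21 from clones 1, 6 and 13, and 0.12 to 0.19 between pairs of those 3. Against clones 8, 14, 17, 10 and 11 it was 0.28 to 0.35. Of the same genes, 3.67 to 4.46% differed 2-fold or more between clone 4 and each of the 3, against 1.46 to 2.39% between pairs of the 3.

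Only 67 genes outside distal chromosome 6 (0.51%) were called 2-fold above the span and 106 (0.808%) 2-fold below it. Of the 67, 59 were protein-coding, and clone 4 was the highest of all 9 clones in 45 (67.2%), against 49% of all 4129 genes above the span. Of the 106, 97 were protein-coding, and clone 4 was the lowest of 9 in 77 (72.6%), against 44.2% of all 4078 genes below it. For 30 of the 106 all 5 other clones lay below the span as well, so that clone 4 was with them and clones 1, 6 and 13 stood apart. That is 28.3%, against 19.2% of the 4078. For 10 of the 67 all 5 others lay above it (14.9%), near the 12.7% of the 4129. The count of 67 became 118 without clone 6 and 112 without clone 13. With a mean of 5 CPM as the floor the counts were 35 above and 41 below, and on the log2(TPM + 1) scale 34 and 33.

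Zfp981, a KRAB zinc finger gene, stood farthest above the span among protein-coding genes that averaged at least 5 CPM over the 4 clones. It was at 136 CPM in clone 4 and at 43.7, 43.1 and 42.7 in clones 1, 6 and 13, 3.11-fold above the nearest of them (95% interval 2.81 to 3.46). This interval, like all those of folds below, treats rounded estimated counts as observed and covers counting error only. It leaves out the error of dividing reads among near-identical copies. The simple epithelial keratins Krt18 and Krt8, which pair to form filaments, were also in this group: Krt18 was at 38.7 CPM against 11.6, 11.3 and 13.9, and Krt8 at 55.9 against 17.9, 22.2 and 20.8. Both were still far below clones 10 and 11, the highest of which had 277 CPM of Krt8 and 180 of Krt18. Axin2, a feedback inhibitor and target of Wnt signalling, was at 42.1 CPM against 17, 15.3 and 15.2, and was the highest of 9 clones.

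The group also held single genes of different kinds. Nefl, the light neurofilament subunit, was at 106 CPM against 44.5, 37.3 and 45.5. Spic, an Ets-family transcription factor, was at 13.6 CPM against 4.74, 5.48 and 5.75. Dnah8, a dynein heavy chain of sperm tails, was at 353 CPM against 132, 129 and 152, while the other 5 clones lay between 85.9 and 139. Usp29, an imprinted gene, was at 17.7 CPM against 5.01, 7.29 and 4.37. For Dnah8 and Usp29 alike clone 4 was the highest of 9 clones. The group was completed by Uba1y, the Y-linked copy of a ubiquitin-activating enzyme, and Zfp978, a neighbour of Zfp981, with Fam53b at 22.7 CPM against 7.68, 7.84 and 9.64, and Gm10800 at 23 CPM against 8.32, 9.26 and 9.83.

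Among protein-coding genes that averaged at least 5 CPM over the 4 clones, Adgrf5, an adhesion G protein-coupled receptor, was farthest below the span. It was at 2.2 CPM in clone 4 and 8.55, 9.08 and 7.42 in clones 1, 6 and 13, 3.37-fold below the nearest (2.21 to 5.29). Rhox6 and Rhox9, X-linked homeobox genes expressed in placenta and germ cells, were at 8.38 and 6.33 CPM. Clones 1, 6 and 13 had 31.3, 25.5 and 26.9 CPM of Rhox6 and 22.8, 20 and 18.5 of Rhox9. For these 3 genes, and for Fam167a, Mapt and Anxa8, all 5 other clones also lay below the span, with at most 9.5 CPM of Rhox6 and 8.51 of Rhox9. Fam167a was at 4.71 CPM against 13.7, 14.9 and 13.2, and Anxa8, an annexin, at 2.43 against 6.14, 6.85 and 6.43. Mapt, which encodes the microtubule-binding protein tau, was at 7.07 CPM in clone 4, at 24.5, 18.5 and 25 in the 3 clones, and between 4.04 and 7.8 in the 5 others.

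Other genes were lower in clone 4 than in all or most of the 8 clones. Elk3, an Ets-family repressor, was at 1.98 CPM against 5.43, 6.96 and 7.33, with 8.01 to 15.8 in the 5 others. Snx25, a sorting nexin, was at 1.98 CPM against 5.66, 7.63 and 5.59, with 4.7 to 11.2 in the others. In TPM both genes stood nearer to the 3 clones. Elk3 was then at 1.59 against 2.55, 4.02 and 6.01, and Snx25 at 1.91 against 3.64, 3.97 and 2.54. Gm28048 was at 1.89 CPM against 8.51, 15.8 and 5.48, and the 3 clones themselves differed widely. Inhbb, the beta-B subunit of inhibin and activin, was at 6.16 CPM against 20.1, 17.1 and 19.4, with clone 11 lower still at 5.46. Aard was at 13 CPM against 35.6, 45.3 and 34.9, with clone 10 lower at 11.4. For these last 2 genes 1 other clone was thus lower than clone 4.

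**Figure D1:**
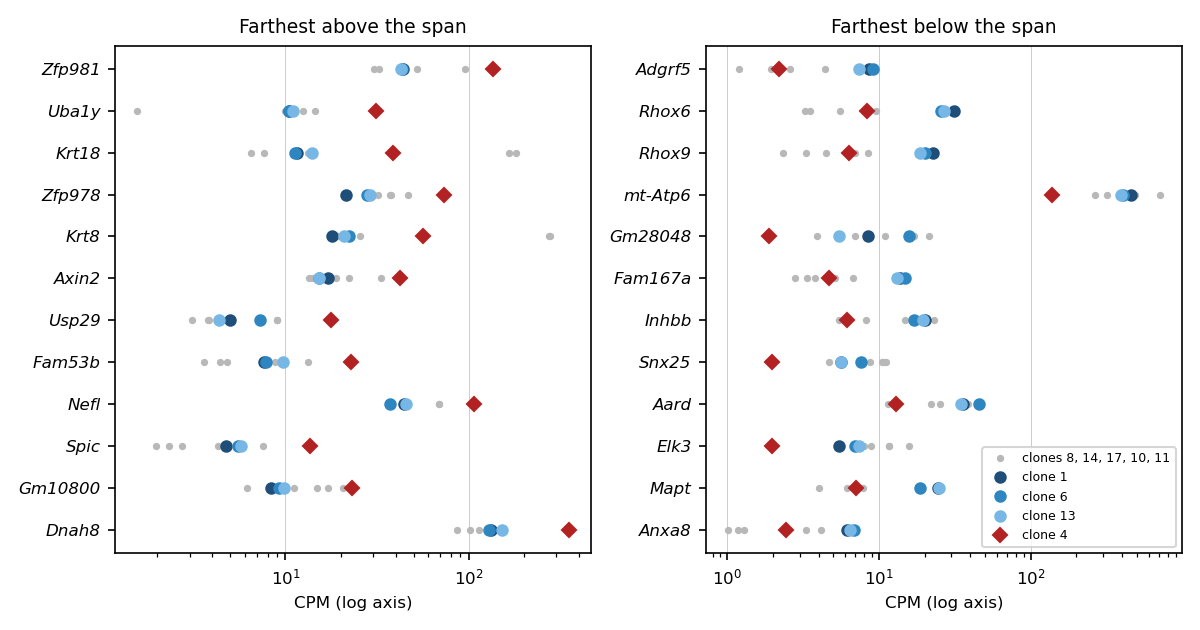
Levels in CPM (horizontal, log axis) of the 12 protein-coding genes farthest above the span (left) and the 12 farthest below it (right), outside distal chromosome 6, that averaged at least 5 CPM over the 4 clones. The diamond is clone 4, the blue circles clones 1, 6 and 13, and the small grey circles the 5 other clones, each 1 library. Some grey circles lie far right of the diamond for Krt18 and Krt8 (up to 180 and 277 CPM) and surround it for Rhox6, Rhox9 and Mapt, while Dnah8 at 353 CPM and Elk3 at 1.98 CPM lie beyond all 8 other clones.

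A shift of neighbouring genes to higher levels was noticed in a cluster of KRAB zinc finger genes on chromosome 4, from Zfp990 to Zfp984 (GRCm38 chr4:145510759-147809788, 2.3 Mb). It was noticed because 5 of its genes were 2-fold above the span, so its counts too are a description. Of 28 measured genes, 21 of them protein-coding, 24 were above the span (85.7%), 4 inside and none below. The median difference was 0.738, a level of 1.67 of the middle clone, where that of all genes outside distal chromosome 6 was -0.013. Clone 4 was the highest of 9 for 17 of the 24 genes above the span, against 49% of all genes above it outside distal chromosome 6. Among 344 other genes named Zfp, 115 were above the span and 106 below, with a median of 0.002, and on the rest of chromosome 4 the median was -0.024.

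Promoters are shown because these genes differed together. RefSeq held the promoter of 13 of the 28 genes (GRCm38.p6, 250 bases before the first listed start). Zfp981's aligned over at least 150 columns at 75% identity or more with those of 10 others, with identities of 78.6 to 82.5%. The longest run of bases common to all 11 was then taken from these same promoters, and it had 15 bases. On either strand it occurred in 11 of 27025 promoters (0.0407%), none of them outside the cluster. The run was chosen as common to the 11, so its presence in each is not a result. Of these 11 genes, 9 were above the span, and Zfp979 and Zfp984 were inside it. Zfp993 and Zfp982, whose listed windows lacked the run, were above the span as well, so that 11 of all 13 were above it. Those 2 windows, at chr4:146512599-146512898 and chr4:147442864-147443163, lie apart from the measured gene models, which start at 146610961 and 147492417. They may therefore not be the promoters of the transcripts measured, and the lack of the run cannot be set against these levels. The following windows of 105 bases show the run in capitals, which begins 164, 135, 141 and 154 bases before the start of Zfp981, Zfp600, Zfp980 and Zfp984. The first 3 were above the span and Zfp984 was not, so the run was held by genes of both kinds. They lie at chr4:146514696-146514800, chr4:146156632-146156736 and chr4:145670496-145670600 on the plus strand and at chr4:147809898-147810002 on the minus strand.
Zfp981: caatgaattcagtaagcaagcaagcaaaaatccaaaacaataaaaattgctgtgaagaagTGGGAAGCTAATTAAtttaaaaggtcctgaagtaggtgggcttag
Zfp600: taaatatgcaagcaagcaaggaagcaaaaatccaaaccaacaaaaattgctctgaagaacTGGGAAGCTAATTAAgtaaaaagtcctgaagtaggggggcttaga
Zfp980: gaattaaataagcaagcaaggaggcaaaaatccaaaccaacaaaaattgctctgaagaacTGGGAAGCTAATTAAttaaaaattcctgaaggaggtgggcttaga
Zfp984: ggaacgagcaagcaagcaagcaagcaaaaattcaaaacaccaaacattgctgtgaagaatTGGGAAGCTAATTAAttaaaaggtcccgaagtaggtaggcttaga
The match is a description of the letters and no binding site. These genes are copies of one another, and the promoters of Zfp600 and Rex2 were identical in 249 of 250 bases.

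The distances varied from gene to gene along the cluster. After Zfp981, Zfp978 was at 72.9 CPM against 21.3, 28 and 28.8 (2.53-fold, 2.24 to 2.86), and Zfp600 at 70.1 against 30.7, 29.2 and 30.3 (2.28-fold, 2.01 to 2.60). Rex2, an abundant member, was at 280 CPM against 130, 127 and 137, and Zfp980, the most abundant, at 300 against 165, 148 and 164. For these 4 genes clone 4 was the highest of 9 clones. In contrast, Zfp990 was at 189 CPM against 181, 164 and 183, Zfp979 at 112 against 118, 101 and 103, and Zfp984 at 77.5 against 80.9, 75.1 and 80. Reads of near-identical copies are divided by estimation, so the levels of single members are less certain than the level of the cluster.

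Clone 4 was not alone in this. Relative to each gene's 9-clone median the cluster stood at 0.568 in clone 4, 0.342 in clone 8 and 0.207 in clone 11, and between -0.112 and 0.070 in the other 6. Clone 11 had 95.2 CPM of Zfp981, between clone 4 and the remaining clones. Trim28, the co-repressor that KRAB domains bind, was at 4296 CPM in clone 4 against 3141, 2949 and 3010, and at 2476 to 2763 in the other clones. Zfp57, a KRAB zinc finger gene of chromosome 17 that maintains imprints, was at 211 CPM against 176, 145 and 188.

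**Figure D2:**
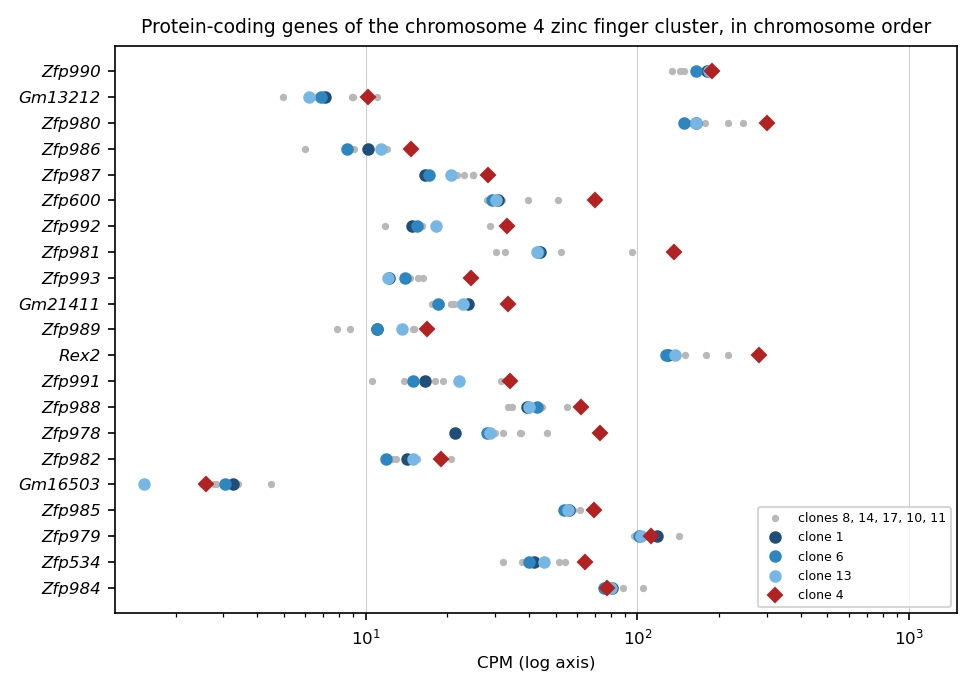
Levels in CPM (horizontal, log axis) of the 21 protein-coding genes of the chromosome 4 zinc finger cluster in chromosome order from top to bottom. The diamond is clone 4, the blue circles clones 1, 6 and 13, and the grey circles the 5 other clones, each 1 library. The diamond lies right of all circles for Zfp981 (136 CPM), Zfp978 (72.9), Zfp600 (70.1), Rex2 (280) and Zfp980 (300), and among them for Zfp979 and Zfp984.

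On distal chromosome 6 clone 4 lacked the raised level of clones 1, 6 and 13. Of 250 genes from Uba3 to Bicd1, over 52.4 Mb, 205 (82%) were below the span, 28 inside it and 17 (6.8%) above it. The median difference was -0.589, a level of 0.665 of the middle clone, and the lower quartile was -0.81. The rule used this contrast, so these counts describe how the clones were chosen. On the rest of chromosome 6, 119 of 378 genes were above the span and 124 below, with a median of -0.009.

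The stretch was named as raised in clones 1, 6 and 13 with earlier results known. The 5 other clones are therefore no independent check. Clone 4 stood with these 5. Its median difference on distal chromosome 6 was between -0.01 and 0.03 from each of clones 8, 14, 17, 10 and 11. Relative to each gene's median over the 9 clones, the region's median was -0.053 in clone 4, 0.436, 0.354 and 0.453 in clones 1, 6 and 13, and -0.068 to -0.106 in the 5 others. All 5 others lay below the span for 142 of the 205 genes (69.3%), against 19.2% of the genes below the span outside distal chromosome 6.

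The genes of this stretch include several of the best-known metabolic and signalling genes. Gapdh, a glycolytic enzyme often used as a reference gene, was at 1635 CPM in clone 4 and at 3354, 3313 and 3112 in clones 1, 6 and 13, with 2277 to 2640 in the others, so that clone 4 was the lowest of 9. Slc2a3, a high-affinity glucose transporter, was at 771 CPM against 1464, 1174 and 1311, and Ldhb, a lactate dehydrogenase subunit, at 326 against 450, 496 and 586. Vhl, which marks hypoxia-inducible factors for degradation, was at 27.7 CPM against 49.5, 38.9 and 49.8, and Gdf3, a ligand of the TGF-beta family, at 90.6 against 165, 140 and 146.

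Distances were not uniform along the stretch. The 18 genes 2-fold below the span (7.2%), which were 28 without clone 6 and 9 on the log2(TPM + 1) scale, were led by Emp1, an epithelial membrane protein, at 18.5 CPM against 54.6, 60.7 and 66.7, which is 2.95-fold below the nearest clone (2.53 to 3.44). Cdkn1b, the cell cycle inhibitor p27, was at 8.36 CPM against 24.2, 22.6 and 24.2, and Tead4, a transcription factor of trophoblast and Hippo signalling, at 9.12 against 22.9, 20.6 and 22.3. Clone 4 was the lowest of 9 clones for these 3 genes. Gprc5a and Vwf, the von Willebrand factor, were also among the 5 farthest below with Emp1 and Cdkn1b, counting protein-coding genes that averaged 5 CPM or more over the 4 clones, at 4.33 and 10.6 CPM in clone 4. The lowest of the 3 clones had 10.3 CPM of Gprc5a and 24.9 of Vwf.

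Near the proximal edge lowered genes and others lay side by side. Genes with differences near 0 reached as far as Itpr1, 11.029 Mb from Uba3 (0.041). Most genes were lowered from Rad18 on, at 15.436 Mb (-1.038). Uba3 itself was at 96.9 CPM against 101, 97.2 and 99. Foxp1, a forkhead factor, was at 44.6 against 45.2, 46 and 46.5, all lower than the 62.8 to 70.2 CPM of the 5 other clones. Between them, Arl6ip5 was at 23.5 CPM against 28.5, 31.2 and 33, and Frmd4b at 5.47 against 16.7, 10.7 and 17.4, both the lowest of 9 clones, and Mitf was also below the span. Nanog, a naive pluripotency factor, was inside the span at 472 CPM against 528, 460 and 500, and the 5 other clones had 246 to 327. Chd4, a chromatin remodeller, was inside it too, at 907 CPM against 733, 966 and 890.

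The genes above the span here were few and mostly by small distances. Of protein-coding genes that averaged 5 CPM or more over the 4 clones, Rimklb was at 38.5 CPM against 26.2, 21.8 and 28.4. Dppa3, a maternal and naive-state factor also called Stella, was at 78.6 CPM against 53.7, 60.8 and 53.5, and clone 4 was the highest of 9. Lrmp at 26.1 CPM against 22, 17.3 and 19.7, Tmem40 at 22.9 against 19.4, 18.3 and 18.6, and Trnt1, which completes transfer RNAs, at 103 against 97, 90.8 and 90.6 were the next of these. The one gene 2-fold above the span (0.4%), at a lower level, was Wnt5b, a Wnt ligand, at 8.05 CPM against 2.3, 2.26 and 1.61. When the region's own median was taken off clone 4, 94 of the 250 genes were above the span, 79 inside and 77 below, and no gene was 2-fold below it. Emp1 was then at -0.96 and Cdkn1b at -0.83, while Dppa3 was at 0.96 and Wnt5b at 2.33.

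A second stretch of lowered genes lay at the end of chromosome 14, from Mzt1 to Nalcn (GRCm38 chr14:99034544-123627144). It was noticed in these data and its edges were set after the values were seen, so its counts are a description. Of 46 genes, 40 were below the span (87%), 4 inside and 2 above, and the median difference was -0.604, a level of 0.658. On the rest of chromosome 14, 125 of 438 genes were above the span and 141 below, with a median of -0.039. 

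Along this stretch the clones divided in different ways. The division of the stretch after Spry2 was, like its edges, set after the values were seen. In the 20 genes from Mzt1 to Spry2, 19 were below the span, and by the median clone 4 was also lower than the other clones. The medians were -0.60 from clone 8, -0.39 from clone 14, -0.35 from clone 17, -0.23 from clone 10 and -0.10 from clone 11. Clone 4 was the lowest of 9 clones for 9 of these 20 genes. In the 26 genes from Slitrk5 to Nalcn, 21 were below the span, but clone 4 was level with the others, at 0.02 to 0.16 from each. Relative to each gene's 9-clone median the whole stretch was at -0.177 in clone 4, 0.185, 0.205 and 0.405 in clones 1, 6 and 13, and 0 to -0.104 in the 5 others. The nearest measured gene before Mzt1, Gm10110, lay at -9.14 Mb relative to it and was inside the span, at 6.59 CPM in clone 4, so the edge is not located more closely. Farther off, Diaph3, a formin, was at 56.7 CPM against 49.3, 47.4 and 48.8, and Tdrd3 at 16 against 8.06, 14.1 and 11.6.

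Klf5, a Kruppel-like factor of the naive network, had the largest distance of the naive pluripotency genes listed. It was at 75.3 CPM in clone 4 and at 141, 161 and 172 in clones 1, 6 and 13, 1.87-fold below the nearest (1.72 to 2.03), with 93.9 to 192 in the other clones. Uchl3, a deubiquitinase, was at 53.4 CPM against 91.3, 93.1 and 101, and the 5 others, at 51.1 to 55.5, were level with clone 4. Ndfip2, an adaptor of Nedd4 ubiquitin ligases, was at 14.9 CPM against 33.9, 28.3 and 29 and was the lowest of 9. Dnajc3, a chaperone of the endoplasmic reticulum, was at 52.2 CPM against 87.1, 82.4 and 92.4. Farp1, at 6.16 CPM against 12.7, 15.1 and 14.9, and Slitrk5, at 0.608 against 1.82, 1.41 and 1.76, were the 2 genes past 2-fold. Against these, Zic5, a factor of formative cells and neural precursors, was above the span at 30.1 CPM against 24.8, 20.8 and 25.7, as was Sox21 at 14.7 against 13.1, 12.4 and 13.3. Zic2, Dct, Gpr180 and Spry2 were inside it.

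**Figure D3:**
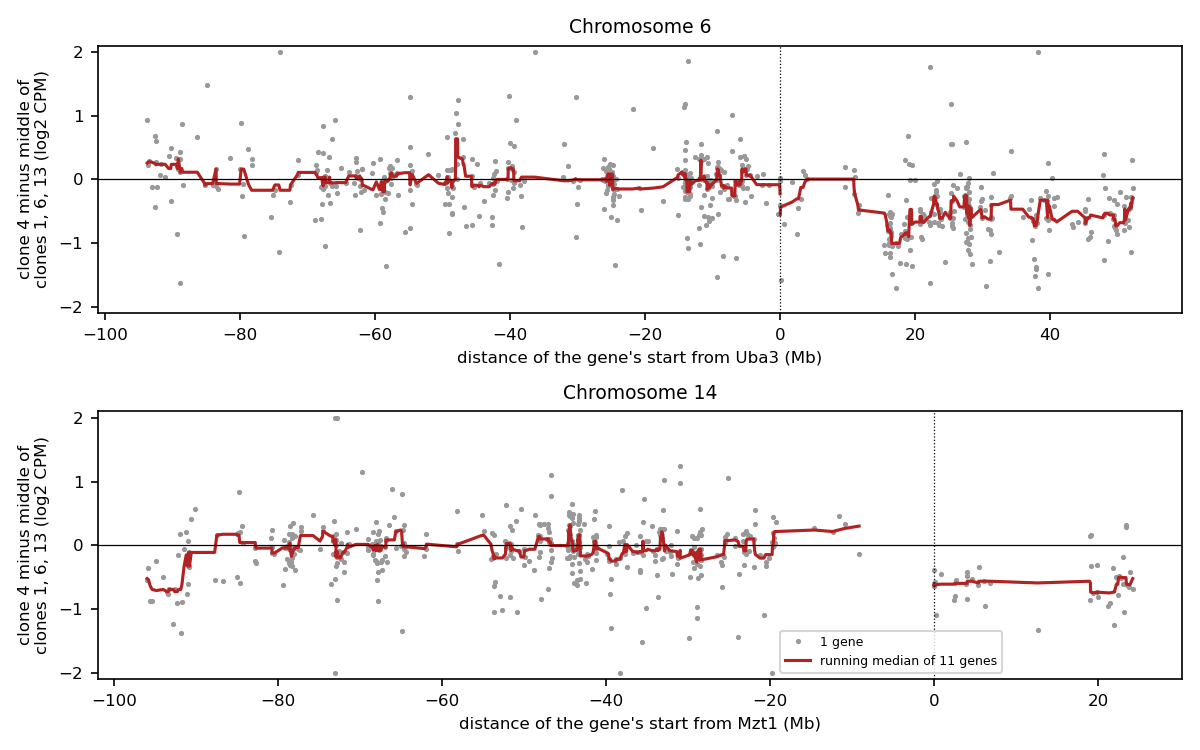
Difference of clone 4 from the middle of clones 1, 6 and 13 (vertical, log2 CPM, values beyond 2 drawn at 2) for every measured gene of chromosomes 6 and 14, by the distance of its start from Uba3 or Mzt1 in Mb (dotted line). Each grey point is 1 gene and the red line a running median of 11 genes, broken at the dotted line. The line runs near 0 up to Uba3 and below 0 for most of the 52.4 Mb after it, and on chromosome 14 it stands near -0.6 after Mzt1 and also dips among the gene copies at the chromosome's start.

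The start of chromosome 14 showed a further dip, in a family of 17 near-identical gene models from Gm2897 to Gm3558. Of these, 9 were below the span and none above, with a median of -0.693. Their levels differed as much among the other clones: clone 4 was 0.28 to 0.30 above clones 8, 14 and 17 and 0.95 and 1.13 below clones 10 and 11, by the medians. Such copies share reads, so that the level of any single one is uncertain. Elsewhere the medians of the autosomes lay between -0.057 (chromosome 8) and 0.021 (chromosome 17), and that of chromosome X was -0.039.

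**Figure D4:**
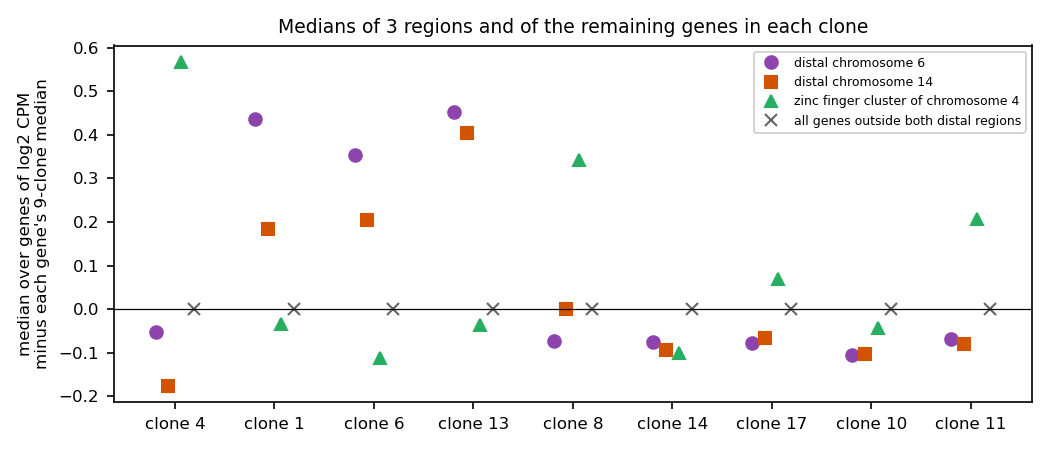
Median over genes of log2 CPM minus each gene's 9-clone median (vertical), for each of the 9 clones (horizontal) and 3 regions, with all genes outside the 2 distal regions as crosses. Clone 4 lies at -0.053 for distal chromosome 6 and at -0.177 for distal chromosome 14, where clones 1, 6 and 13 are all above 0, and at 0.568 for the zinc finger cluster, above clones 8 (0.342) and 11 (0.207).

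Among the functional lists, counted outside distal chromosome 6, few lay mostly on one side. Members under the floor are not counted. For any list, the shares to compare with are the 31.5% above and 31.1% below the span over all genes. The mitochondrially encoded respiratory genes stood out by their median, -0.58, with 12 of 13 below the span. mt-Co1, a subunit of cytochrome c oxidase, was at 2055 CPM against 4178, 3289 and 3686, and mt-Nd1, of complex I, at 341 against 499, 549 and 488. mt-Atp6, of ATP synthase, had the largest distance, at 139 CPM against 456, 406 and 396. The exception was mt-Nd3, at 139 CPM against 88.7, 77.1 and 80.3. These transcripts share reads with nuclear copies, of which Gm28437 and Gm29216 on chromosome 1 (chosen after their values were seen) were at 10.7 and 145 CPM. Clones 1, 6 and 13 had 281 to 410 CPM of Gm28437 and 339 to 364 of Gm29216. Nuclear-encoded respiratory genes were not lowered: of 29, 12 were above the span, 6 below, and the median was 0.03. Atp5b was at 2703 CPM against 2497, 2303 and 2349, and Cycs, the somatic cytochrome c, was below at 25.1 against 41.7, 42.4 and 34.4. Uqcrc1, a core subunit of complex III, was the highest of 9 clones at 216 CPM against 183, 175 and 179.

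Genes of triglyceride synthesis were mostly below the span. Of 13 genes of triglyceride synthesis 10 were below and 1 above (median -0.22). Dgat2, which adds the last fatty acid, was at 8.51 CPM against 13.3, 12.9 and 12.7, and the acyltransferases Agpat3 and Agpat2 at 14.7 against 23.3, 24 and 22.6 and at 16.7 against 25.5, 25.2 and 24.3. Agpat5, another acyltransferase, was at 48.1 CPM against 70.5, 76.4 and 67. Dgat1 was inside the span at 14.6 CPM against 16.2, 13.5 and 13.9. All 5 other clones were also below the span for Dgat2 and Agpat2, while for Agpat3 and Agpat5 clone 4 was the lowest of 9.

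Of 16 genes of fatty acid desaturation and elongation 10 were below and 2 above (median -0.24). Fads1 and Fads2, the delta-5 and delta-6 desaturases, were at 30.4 and 26.6 CPM, against 47.7, 47.8 and 51.8 for Fads1 and 41.3, 41.5 and 40.7 for Fads2. Elovl1, an elongase of very long chains, was at 5.93 CPM against 10.2, 11 and 10.3, and Hacd1 at 4.43 against 7.73, 7.19 and 6.54. The abundant desaturase Scd2 was above the span by a small distance, at 635 CPM against 552, 575 and 606. Of 12 genes of fatty acid binding and activation 8 were below (median -0.28). The binding proteins Fabp5 and Fabp3 were at 13.8 CPM against 22.8, 22.1 and 22.5 and at 66.8 against 102, 94.5 and 94.5. Acsl6, an acyl-CoA synthetase, was at 5.55 CPM against 10.8, 9.18 and 12.4, and Slc27a4, a fatty acid transporter, was above the span at 60.3 CPM against 51.1, 49.9 and 51.7.

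Synthesis of fatty acids and sterols did not share this direction. Of 11 genes of fatty acid synthesis 5 were above the span and 2 below (median -0.05), and Fasn, the fatty acid synthase, was at 1338 CPM against 948, 1058 and 1026, while Acacb was at 22.9 against 27.4, 30.4 and 30.2. Acly, which makes cytosolic acetyl-CoA, was at 969 CPM against 856, 851 and 826, and like Fasn was the highest of 9. Of 21 genes of the mevalonate and cholesterol pathway 6 were above and 8 below (median -0.03). Fdps was at 221 CPM against 203, 146 and 146 and Sqle, an epoxidase, at 118 against 116, 105 and 101, whereas Sc5d, a late desaturase of the pathway, was at 9.2 against 15.8, 13.3 and 15.7. Tm7sf2, a sterol reductase, was at 6.46 CPM against 10.5, 10.5 and 8.5. Hmgcs1 was inside the span at 284 CPM against 242, 287 and 280.

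Genes that respond to sterols were mixed. Of 18 genes of sterol sensing, uptake and efflux 4 were above and 9 below (median -0.21). The efflux pumps Abca1 and Abcg1, targets of the liver X receptors, were at 23 CPM against 41.1, 44.1 and 44.6 and at 29.2 against 43, 37.4 and 40.6. Insig1, which retains the sterol sensor in the endoplasmic reticulum, was the highest of 9 clones at 112 CPM against 102, 85.3 and 89. Of 12 droplet coat and lipolysis genes 3 were above and 3 below (median 0.03). Plin2, the main droplet coat protein of non-adipose cells, was inside the span at 20.6 CPM against 24.9, 18.9 and 19.9, Plin3 was above it at 120 against 97.5, 83.8 and 91.8, and Pnpla2, the triglyceride lipase, below it at 11.6 against 16.6, 20.8 and 17.8. Pnpla3, a relative of Pnpla2, was above at 4.04 CPM against 2.51, 2.5 and 1.93, and Lipe, the hormone-sensitive lipase, below at 8.43 against 11.9, 10.7 and 10. Of 22 genes of fatty acid oxidation 8 were above and 7 below (median 0.02), with Acaa2 at 58.9 CPM against 42.9, 40.5 and 38.3. Eci2, an isomerase of the pathway, was at 29.2 CPM against 20.4, 24.4 and 21.9, and Ppard, a nuclear receptor, at 8.36 against 10.5, 10.9 and 9.43.

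Glycolytic enzymes outside distal chromosome 6 were more often above the span than below. Of 14, 7 were above the span and 1 below (median 0.10), and Pkm, the pyruvate kinase, was the highest of 9 clones at 6000 CPM against 5063, 4552 and 4580. The phosphofructokinases Pfkp, at 404 CPM against 332, 304 and 293, and Pfkl, at 642 against 564, 515 and 538, were also the highest of 9. On distal chromosome 6 the same pathway held Gapdh, Ldhb and Tpi1, at 595 CPM against 893, 666 and 786, all below, and Eno2, the neuronal enolase, above at the lower level of 2.96 against 1.92, 1.7 and 2.22. Of 14 genes of glucose and lactate transport and glycolysis control 7 were below and 2 above (median -0.09), with Slc2a1, the main glucose transporter outside that stretch, at 451 CPM against 592, 492 and 524. Pdk1, which inhibits pyruvate dehydrogenase, was at 193 CPM against 256, 226 and 235.

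Of 20 hypoxia response genes 10 were below the span and 3 above (median -0.09). Vegfa, an angiogenic growth factor, was at 5.12 CPM against 14.5, 11.4 and 10.6, and Epas1, which encodes HIF-2 alpha, at 29.4 against 49.4, 57.7 and 61.2, both the lowest of 9 clones. Car12, a carbonic anhydrase, was at 4.78 CPM against 10.5, 9.48 and 8.74, while Ddit4, an inhibitor of mTORC1, was above at 47.9 against 29.3, 36.6 and 31.1. Bnip3, a mitophagy receptor, was inside the span. Of 18 genes of lysosome and autophagy 12 were below and 2 above (median -0.18). The proteases and hydrolases Ctsl, at 108 CPM against 176, 146 and 164, and Hexa, at 38.3 against 60.2, 54.8 and 51.9, were among them, as was Lamp1, a lysosomal membrane protein, at 283 against 370, 413 and 364. On distal chromosome 6, and so not counted here, Gabarapl1, an autophagosome protein, was at 20.8 CPM against 52.4, 40.2 and 46.1, and Mitf, a transcription factor known from melanocytes, at 12.5 against 20.4, 18.9 and 20.3. Gpnmb, a lysosomal glycoprotein, was above the span at the low level of 1.84 CPM against 1.06, 0.673 and 1.07.

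Of 15 genes of serine, glycine and one-carbon metabolism 8 were above and 3 below (median 0.10). Phgdh, the first enzyme of serine synthesis, was at 199 CPM against 153, 153 and 147, and Tdh, the threonine dehydrogenase on which mouse embryonic stem cells rely, at 757 against 668, 590 and 557. Slc1a4, a neutral amino acid transporter, was at 13.8 CPM against 10.7, 10.9 and 9.49.

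The pluripotency lists were divided. Of 14 naive genes outside distal chromosome 6, 6 were above the span and 7 below (median -0.21). Zfp42, also called Rex1, was at 870 CPM against 708, 740 and 670 and Dppa5a, an RNA-binding protein of the naive state, at 2058 against 1451, 1586 and 1609, both the highest of 9 clones. Tcl1, a cofactor of Akt, was at 63.5 CPM against 86.9, 92.7 and 88, and Prdm14, a repressor of FGF signalling and DNA methylation, at 18.8 against 23.3, 24 and 27.4. Klf5, on distal chromosome 14, is the member described above. Of 11 core genes 3 were above and 3 below (median -0.01), but 6 were below without clone 1. Tdgf1, the Nodal co-receptor, was at 276 CPM against 366, 342 and 360.

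Formative genes, which are known to come on as naive cells advance, were more often above. Of 16, 9 were above and 2 below (median 0.28). Otx2, a factor of the primed epiblast, was at 19.9 CPM against 13.3, 14.5 and 10.2, and Dnmt3b, a de novo DNA methyltransferase, at 337 against 195, 238 and 236. Foxd3 was at 29.3 CPM against 21.6, 20.1 and 20.7, and Pou3f1 at 9.95 against 8.06, 6.64 and 6.35. For Otx2, Dnmt3b and Pou3f1 other clones were higher still, with up to 29.5, 455 and 31.6 CPM. Etv4, a target of FGF signalling, was below the span at 57.4 CPM against 83.2, 79.9 and 70.

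The Wnt list had equal counts on either side of the span and single members far from it in both directions. Of 16 members 4 were above and 4 below (median -0.02). Beside Axin2, Sp5, a Wnt target and Sp-family repressor, was at 9.12 CPM against 4.22, 2.9 and 3.6, 2.16-fold above the nearest (1.52 to 3.12). Tcf7l1, the TCF protein that represses Wnt targets in embryonic stem cells, was the lowest of 9 clones at 4.26 CPM against 9.69, 12.5 and 11, 2.28-fold below the nearest (1.63 to 3.22). In TPM its distance was much smaller, at 4.5 against 5.06, 6.97 and 7.07. Ctnnb1, beta-catenin, was at 835 CPM against 810, 761 and 798, and Lef1 was inside the span. On distal chromosome 6 the co-receptor Lrp6 was below at 49.4 CPM, where the lowest of the 3 clones had 78.9. The ligand Wnt3 was at 3.27 CPM against 2.11, 2.12 and 2.14 and Wnt3a at 0.912 against 1.73, 1.41 and 1.68. Wnt8a, chosen after its values were seen, was at 5.4 CPM against 0.96, 1.48 and 1.07.

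Of 17 listed primitive streak and mesoderm genes 12 reached the floor, and 8 of these were above the span and 3 below (median 0.41), nearly all at low levels. Cdx2, a caudal homeobox factor of trophoblast and posterior mesoderm, was at 3.04 CPM against 0.48, 1.13 and 0.689, and Cdx1 at 2.13 against 0.864, 0.989 and 1.38. T, the brachyury gene, was at 2.36 CPM against 1.82, 0.989 and 1.76. Bmp4 was below the span at 36.5 CPM against 74.1, 69 and 74.9. Bmp4 was the most abundant member in clone 4, and the summed level of all 17 was lower in clone 4 (70 CPM) than in the 3 clones (92.4 to 101). With a floor of 5 CPM 2 members were above. None of the 17 was at 0 in clone 4, and the part of such cells in the Wnt genes' levels was not tested. Id3 and Id1, targets of BMP signalling chosen after their values were seen, went the other way from Bmp4. Id3 was at 117 CPM against 50.3, 55 and 48.6, the highest of 9 clones. Id1 was at 44.6 CPM against 25.1, 34.2 and 25.9, and the 5 other clones were higher still, at 55.9 to 154. Id2, examined with them, was inside the span at 17.2 CPM against 16, 17.9 and 18.4.

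Other signalling lists had medians between -0.17 and 0.01. Of 17 genes of the FGF and ERK pathway 5 were above and 8 below (median -0.17). Fgfr3 was at 3.65 CPM against 7.77, 6.92 and 7.5, and Dusp6, an ERK phosphatase, at 91.3 against 79.7, 77.3 and 77.5. Spred1, an inhibitor of ERK signalling, was the lowest of 9 clones at 37.2 CPM against 46.4, 43.8 and 45.1. Of 12 genes of the LIF pathway 2 were above and 5 below (median -0.11), with the receptor subunit Il6st at 163 CPM against 120, 130 and 138 and Stat3 inside the span at 167 against 167, 163 and 169. Socs3, a feedback inhibitor induced by Stat3, was below at 119 CPM against 154, 138 and 137, as was Myc at 56.5 against 65.9, 75.1 and 74.1, the lowest of 9. Pim3, a kinase gene, was above at 257 CPM against 196, 208 and 211. Of 13 Nodal pathway genes 5 were above and 6 below (median 0.01), with Furin and Pcsk6, proteases that process Nodal, at 6.53 CPM against 10.9, 13.8 and 11.3 and at 31 against 52.1, 48.5 and 49.2. Smad7, an inhibitory Smad, was at 76.1 CPM against 110, 90.9 and 96.5.

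Regulators of DNA methylation and genes under its control included single members with large distances. Of 16 methylation genes 7 were above and 4 below (median 0.05). Uhrf2, a reader of modified cytosine, was the highest of 9 clones at 114 CPM against 49.2, 54.1 and 49.6 (2.11-fold, 1.93 to 2.31), whereas its relative Uhrf1, which guides Dnmt1, was inside the span at 489 against 453, 500 and 537. Mbd1, a methyl-CpG binding protein, was at 25.7 CPM against 10.5, 12.3 and 14.5. Tet2, which oxidises methylcytosine, was below at 88.9 CPM against 126, 115 and 125. Of 13 methylation-sensitive germline genes that reached the floor 6 were above and 2 below (median 0.23). Stk31 was at 14.2 CPM against 4.51, 6.71 and 5.89 and Tex19.1, a repressor of transposons, at 134 against 65.4, 74.4 and 60, both the highest of 9. Rpl10l, the retrocopy of a ribosomal protein gene, was at 38.8 CPM against 17.7, 25.2 and 17.6.

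Of 28 imprinted protein-coding genes 12 were above the span and 5 below (median 0.12). Besides Usp29, Plagl1, a zinc finger gene, was at 6.27 CPM against 1.85, 3.67 and 2.3. Rtl1, a retrotransposon-derived gene of the placenta, was at 7.98 CPM against 5.04, 3.85 and 5.43. Cdkn1c, a growth inhibitor, was at 43.1 CPM against 27, 23.5 and 29.7, and Phlda2, its neighbour on chromosome 7, at 63.2 against 39.9, 42.8 and 46.8, both the highest of 9. Slc22a18, in the same domain, was below at the low level of 1.52 CPM against 2.59, 2.61 and 3.14. Of 22 listed two-cell-like genes 7 reached the floor and 4 were above (median 0.59), among them Zscan4c at 3.12 CPM against 2.08, 2.01 and 0.397 and Zscan4d at 2.51 against 0.906, 1.44 and 0.659. Zscan4e at 1.91 CPM and Zscan4a at 2.05 were the other 2, and such copies share reads. The summed level of the 21 annotated members ran the other way, at 250 CPM in clone 4, 266, 272 and 276 in clones 1, 6 and 13 and 268 to 311 in the 5 others, with Tdpoz1 at 0.

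Markers of other cell types differed in both directions. Of 13 trophoblast markers 5 were above and 4 below (median -0.24): the keratins and Cdx2 were above, and Rhox6 and Rhox9 below. Krt19 was at 38.8 CPM against 26.3, 25.5 and 25.6. The summed level of 18 listed trophoblast markers was 233 CPM against 219 to 225, with Prl3d1, a trophoblast hormone, at 0. Of 14 primitive endoderm markers 8 were below and 2 above (median -0.42). Lama1, a laminin chain, was at 134 CPM against 215, 190 and 227 and Hnf4a at 0.912 against 2.4, 1.77 and 3.06. Sox7 was at 0.532 CPM against 2.11, 1.2 and 1.07, Cubn, an endocytic receptor, at 0.76 against 3.07, 1.91 and 1.45, and Dab2 at 1.6 against 2.69, 3.46 and 2.6. The summed level of 19 markers was 1542 CPM against 1515 to 1636, with Afp and Ttr at 0. With a floor of 5 CPM 3 members were below.

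Of 12 fibroblast markers 9 were above the span and 1 below (median 0.28). Col1a1, a fibrillar collagen chain, was at 7.14 CPM against 2.3, 2.68 and 2.3, and Col3a1 at 1.06 against 0.384, 0.141 and 0.0765, while clone 11 had 42 and 4.36 CPM. Tagln, a smooth muscle protein, was at 4.79 CPM against 3.05, 2.54 and 3.14, and Acta2 at 1.44 against 0.48, 0.848 and 0.536. The summed level of 16 markers was 1002 CPM against 810 to 958, with Dcn and Postn, defining fibroblast genes, at 0. With a floor of 5 CPM 5 members were above. The part of trophoblast, endoderm, fibroblast or neural cells in any result was not tested. Of 7 early neural genes 2 were above and 3 below (median -0.12). Pax6, an eye and forebrain factor, was at 11.2 CPM against 4.82, 4.86 and 4.93, and the neural adhesion gene Ncam1 at 10.3 against 20.5, 15.9 and 19.6. Nes, the nestin gene, was at 28.5 CPM against 14.8, 21 and 21.7, and Zfp521 at 0.76 against 2.3, 2.9 and 2.83.

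**Figure D5:**
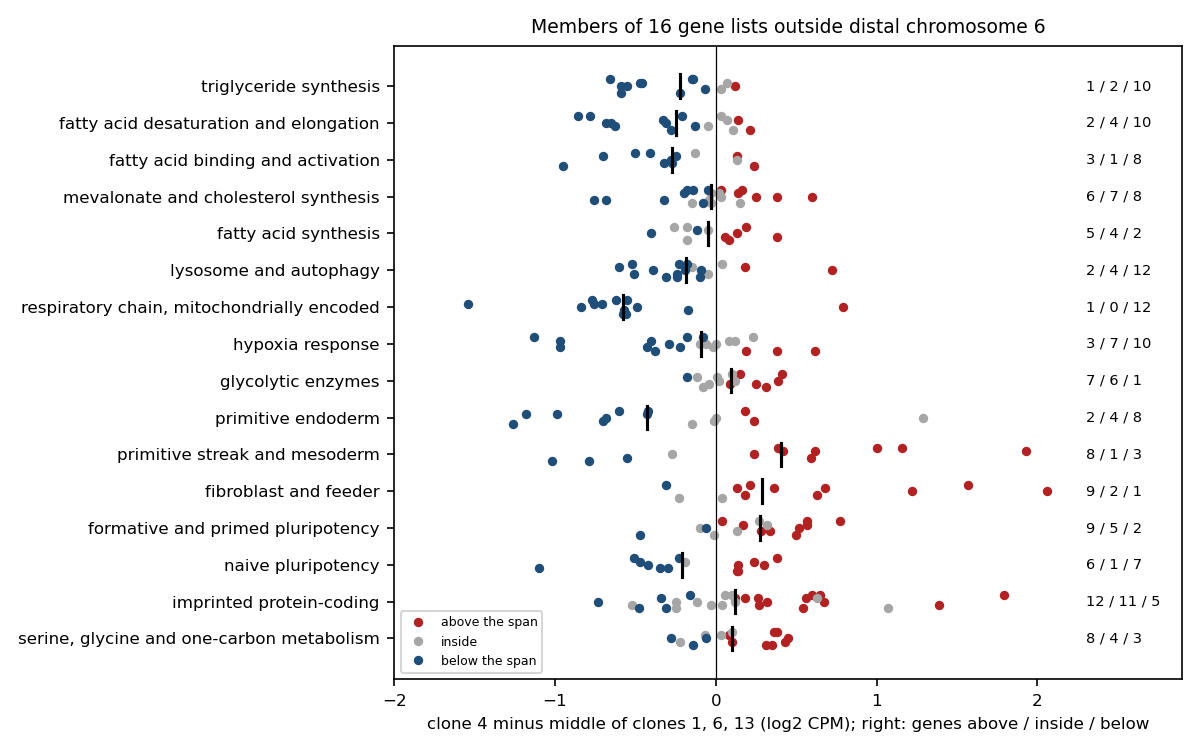
Difference of clone 4 from the middle of clones 1, 6 and 13 (horizontal, log2 CPM) for the members of 16 gene lists outside distal chromosome 6. Each point is 1 gene, red above the span, grey inside and blue below, the black bar is the list's median, and the figures at the right count genes above, inside and below. Points are mostly blue for the mitochondrially encoded genes (12 of 13 below), triglyceride synthesis (10 of 13) and lysosome and autophagy (12 of 18), and mostly red for fibroblast (9 of 12) and primitive streak genes (8 of 12).

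Telomere genes, which the series' title concerns, had medians near 0. Of 9 genes listed under shelterin 3 were above and 2 below (median 0.05). The list counts Rif1 and Rap1a, which are not shelterin subunits, and both lay outside the span. Terf1, a telomere repeat binding factor, was inside a wide span at 75.9 CPM against 54.8, 116 and 110. Acd was at 13.5 CPM against 17.1, 18.9 and 19.3. Rif1, which binds telomeres and times replication, was at 727 CPM against 583, 693 and 610. Of 14 genes listed under telomerase and CST, which include Atrx, 5 were above and 4 below (median -0.02). Tert, the reverse transcriptase, was at 17.9 CPM against 19.5, 18.9 and 19.6, and Ctc1, of the CST complex, at 116 against 146, 143 and 142. Atrx, a chromatin remodeller that acts at telomeres, was at 370 CPM against 285, 319 and 303.

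Stress and growth lists had medians between -0.05 and 0.07. Of 17 genes of the integrated stress response 8 were above and 5 below (median 0.07), and Cth, a cysteine synthesis enzyme, was at 39.6 CPM against 78.8, 55.8 and 75.6. Atf3 and Chac1, targets of this response, were at 0.38 CPM against 0.672, 0.706 and 1.07 and at 0.684 against 2.02, 1.34 and 1.07. Of 20 genes of the unfolded protein response 4 were above and 10 below (median -0.05), with Dnajb9 at 6.23 CPM against 11.9, 12.9 and 9.57. Herpud1, which serves degradation from the endoplasmic reticulum, was at 8.05 CPM against 11.9, 9.89 and 10.1. Of 19 p53 genes 4 were above and 5 below (median -0.02), and Perp, an effector of p53, was at 18 CPM against 36.6, 33.2 and 29.5. Sesn1, a sestrin, was above at 26.4 CPM against 17.9, 19.8 and 19.7. Of 18 oxidative stress genes 6 were above and 8 below (median -0.04), with Nqo1, a quinone reductase, at 17.4 CPM against 29.6, 27.8 and 28.3. Txn1, thioredoxin, was above at 349 CPM against 278, 269 and 261. Of 22 cell cycle genes 8 were above and 6 below (median -0.03), with Ccnd1, cyclin D1, at 239 CPM against 170, 175 and 193. Ccnd3, cyclin D3, was below at 111 CPM against 131, 145 and 145.

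Of 17 interferon genes 6 were above and 5 below (median 0.09). Ddx58, the RNA sensor RIG-I, was at 111 CPM against 51.4, 50.4 and 54.3, and Gbp2, a guanylate-binding protein, at 8.66 against 4.61, 3.18 and 4.29. Ifitm3, a membrane protein that restricts viruses, was below the span at 24.6 CPM against 42.3, 50.5 and 38.8. Of 13 immediate early genes 2 were above and 4 below (median -0.15), and of 18 nutrient transporters 3 were above and 4 below (median -0.07), with Slc38a4 at 168 CPM against 236, 257 and 246. Among the former, Fos was at 4.33 CPM against 8.06, 5.79 and 6.35, Jun at 9.57 against 12.1, 13.3 and 12.2, and Jund, above the span, at 24.3 against 16, 19.9 and 15.8.

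Of 4 listed Y-linked genes that reached the floor, 1 was above the span and 3 inside it (median 0.16), and Uba1y, outside the list, was also above. Uba1y was at 31.2 CPM against 10.5, 10.4 and 11 and Ddx3y, an RNA helicase, at 105 against 56.3, 56.6 and 57.3, while Eif2s3y was inside the span at 64.4 against 64.6, 66 and 61.8 and Uty at 43.2 against 44.1, 38.6 and 38.7. The X-linked Ddx3x was inside it at 1035 CPM against 880, 1082 and 1065. The median of 11 Y-linked genes was 0.397.

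A large distance in 1 gene placed clone 4 with most other clones. Ttn, the titin gene, was at 90.1 CPM in clone 4 and at 34.2, 29 and 39.3 in clones 1, 6 and 13, with 72 to 87.8 in the other 5. Xkrx, in contrast, at 9.85 CPM against 0.817, 1.89 and 1.35, was above all other clones, of which the highest had 4.74. Msln, mesothelin, was at 0.456 CPM against 4.51, 4.1 and 5.13, with 1.65 to 3.03 in the others. These 3 genes were chosen after their values were seen. The threshold of 1 divided genes that lay close together: Pramef8, at 18.8 CPM against 9.31, 9.08 and 7.35 (distance 1.00), was called, and Dmrt1, at 48.8 against 16.3, 24.6 and 15.8 (0.98), was not. On the lower side Smo, at 10.3 CPM against 22.1, 20.8 and 21.4, was called, and Plpp3, at 9.73 against 21.6, 19.5 and 21.2 (-0.99), was not.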

How the data were processed

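RNA of 9 E14 clones, 1 library each, was prepared with a stranded mRNA kit, per the labels. The submitters' processing notes name CASAVA 1.8, FastQC, Trimmomatic 0.33, kallisto 0.43.1 and the GRCm38 (mm10) build. The authors deposited estimated counts and TPM for each transcript, as given in the file headers. For the annotation release, no name was found (not given in the sources used here). Of 115270 transcripts, 113580 (98.53%) matched GENCODE by Ensembl identifier and were summed to 35580 genes. Transcripts left out held 0.641 to 0.773% of the counts.

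TMM factors over the 9 clones and log2 CPM with a prior count of 2 were computed with edgeR 4.0.16 in R 4.3.3, and no count test was run, since each clone is 1 library. Genes with a mean under 1 CPM over the 9 clones were left out. A level of 3 counts corresponded to 0.212 to 0.288 CPM. Folds compare clone 4 with the nearest of the 3 clones. Their 95% conditional intervals treat rounded estimated counts as observed and cover counting error only. The span rule alone was tested on simulated counts, which held counting error but no spread between clones. Python 3.11.15, NumPy 2.4.6, pandas 2.3.3, SciPy 1.17.1 and matplotlib 3.10.9 were used. Promoters are from RefSeq (GRCm38.p6).

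The clones, the regions and the 42 gene lists were chosen with earlier results of these data known. By rule the text names, outside distal chromosome 6, the 12 protein-coding genes farthest above and the 12 farthest below the span that average 5 CPM or more over the 4 clones. On distal chromosome 6 it names the 5 such genes farthest on each side, and in each list up to 4 members with the largest distance. It also names markers of pluripotency, lipid metabolism and telomeres (Pou5f1, Sox2, Nanog, Zfp42, Dppa3, Dnmt3b, Plin2, Sqle, Fdps, Insig1, Hmgcs1, Tert and Terf1). Some members that the rule selects are not reported here. Other genes were chosen after their values were seen. Alternatives were other scalings, floors, prior counts, folds and units, protein-coding genes alone, and leaving out each clone of the span.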

Additional observations from a re-analysis of the deposited data

How the results depend on the processing

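Of 412 recomputed counts and medians, 381 stayed within 1.5 times or within the spread, 31 moved further and none reversed. Without a floor on low levels, 6668 genes were above the span outside distal chromosome 6, 371 of them and 264 below it past 2-fold. On distal chromosome 6, 46 were then above and the median was -0.420, that of distal chromosome 14 was -0.467, and 44 genes of the zinc finger cluster were above. With a floor of 5 CPM, 35 and 41 genes were past 2-fold, and 2 primitive streak and 5 fibroblast genes were above and 3 primitive endoderm genes below. With log2(TPM + 1), 34 and 33 genes were past 2-fold, 9 on distal chromosome 6 below, and the cluster's median was 0.562. That median was 0.629 for protein-coding genes. At a fold of 1.5 the counts were 258, 425 and, on distal chromosome 6, 77, and at a fold of 3 they were 7, 23 and 0. With its median difference taken off, distal chromosome 6 had 77 genes below, 94 above, 0 past 2-fold below and a median of 0.000. Leaving out 1 clone of the span at a time gave 98 to 118 genes 2-fold above, 19 to 28 on distal chromosome 6 2-fold below, and 3 to 6 core pluripotency genes below. Leaving out distal chromosome 14 or the zinc finger cluster, both tried after the data were seen, left 104 genes 2-fold below and 62 above. Of 1568 recomputed distances of 196 genes, 1483 stayed alike, 82 moved and 3 reversed: with log2(TPM + 1), Ppard was 0.16, Trp53inp1 0.01 and Tert 0.05 above the span. No cause was tested. With 1 library a clone, the spread between cultures of a clone is unknown, and levels near 3 counts cannot be told apart. No paired analysis was possible because each clone is 1 library and the groups share no second replicate number.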
